A study of Mus musculus with 8 samples.

Results

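The mouse mitochondrial genome is a small circular DNA that carries 13 protein-coding genes, 2 ribosomal RNA (rRNA) genes and 22 transfer RNA (tRNA) genes. Its transcripts were taken as every gene that the deposited count table places on the chromosome MT, which gave 37 of 55114 listed genes. Bulk RNA of isolated intestinal crypts had been sequenced from 4 mice with a constitutive Mex3a knockout (KO) and 4 littermate control mice (Ctrl). All mice were C57BL/6 and 8 weeks old, and no treatment is named for either group. As the study describes it, the KO allele lacks the first exon of Mex3a and part of the next. Mex3a encodes an RNA-binding protein, and the deletion is present in every cell of the animal, not in the intestine alone. The comparison asks which crypt transcripts differ when Mex3a is lost.

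Both strands of mitochondrial DNA are read by a dedicated RNA polymerase, encoded by the nuclear gene Polrmt, into long RNAs that span many genes. These are cut mainly at the tRNAs that punctuate the genome, which releases the rRNAs of the mitochondrial ribosome, the tRNAs, and mRNAs for subunits of respiratory complexes I, III and IV and of ATP synthase (complex V). mt-Nd6 is the protein-coding gene read from the opposite strand to all the others, and a set of tRNAs shares its strand. In the intestine, mitochondrial respiration is active in crypt stem cells and in absorptive enterocytes.

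Sequence features bear on how far reads can be assigned to these genes. The 37 genes had the same coordinates in GENCODE M21 on GRCm38, and the sequences printed here come from that release. mt-Nd5 (MT, 11742 to 13565, plus strand) and mt-Nd6 (MT, 13552 to 14070, minus strand) overlap tail to tail over 14 bases. Their last 60 bases, 5′ to 3′, are given with the overlap in capitals.
mt-Nd5: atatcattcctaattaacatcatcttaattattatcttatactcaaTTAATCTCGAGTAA
mt-Nd6: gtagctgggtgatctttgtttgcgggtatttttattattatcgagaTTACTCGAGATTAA

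The opposite strand also gives mt-Nd6 another base composition. G made up 28.1% of mt-Nd6 and between 5.88% and 16.1% of the other protein-coding genes. The first 100 bases of mt-Nd6 and of the small-subunit rRNA gene mt-Rnr1 (MT, 70 to 1024, plus strand), a member that was lower and a member that was higher in KO mice below, are shown with each G in capitals.
mt-Nd6: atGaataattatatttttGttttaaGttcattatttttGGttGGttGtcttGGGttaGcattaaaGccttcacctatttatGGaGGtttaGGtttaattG
mt-Rnr1: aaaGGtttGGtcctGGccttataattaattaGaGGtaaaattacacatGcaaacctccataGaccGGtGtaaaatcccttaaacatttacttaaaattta

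A stretch of nuclear DNA on chromosome 1 (24611535 to 24616197, minus strand) repeats part of the mitochondrial genome and is annotated as 7 pseudogenes. The copies of mt-Nd4, mt-Nd4l, mt-Nd3, mt-Co3, mt-Atp6 and mt-Co2 were identical to the mitochondrial gene over their whole aligned length, which ran from 294 bases for mt-Nd4l to 876 bases for mt-Nd4. The copy of mt-Co1, Gm29216, matched 482 of 483 aligned bases. A window of 60 bases at the start of Gm29216, with the 6 differing bases in capitals, shows where the match to mt-Co1 begins, at base 10 of the pseudogene.
mt-Co1: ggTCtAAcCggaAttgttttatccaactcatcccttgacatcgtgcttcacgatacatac
Gm29216: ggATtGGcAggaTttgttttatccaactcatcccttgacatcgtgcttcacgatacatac

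The libraries held 20324184 to 30654105 counted reads each. Mex3a had 236 to 328 counts in Ctrl and 6 to 28 in KO libraries, so the targeted gene matched the labels. All 6 epithelial markers on the list used here passed the filter on low counts, as did all 4 crypt stem cell markers, so the defining markers of the labelled tissue were present. The summed level of the stem cell markers was lower in every KO mouse, at 2884 to 3772 CPM (counts per 1000000 reads of the library), against 3873 to 4952 CPM in Ctrl. That of the 6 enterocyte markers overlapped, at 1026 to 2463 CPM in Ctrl and 1509 to 5992 CPM in KO, and that of the 6 T cell markers ran from 4.64 to 10.8 CPM and from 7.15 to 27.2 CPM. In bulk RNA, fewer cells of a type and less RNA per cell cannot be told apart.

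Mitochondrial genes took overlapping shares of the reads in both genotypes. They held 6.60%, 6.95%, 7.68% and 11.6% of all counted reads in Ctrl mice 1 to 4. In KO mice 1 to 4 the shares were 8.13%, 5.63%, 8.87% and 8.76%. The highest share belonged to Ctrl mouse 4 and the lowest to KO mouse 2, so the groups overlapped. The means were 8.21% ± 2.31 and 7.85% ± 1.51 (SD, n = 4 each), and the sign of the difference turned when either of those mice was left out (KO minus Ctrl 0.77 percentage points without Ctrl mouse 4, 0.38 without KO mouse 2). The 13 mRNA genes made up nearly all of it, with 8.09% ± 2.27 of reads in Ctrl and 7.67% ± 1.48 in KO mice. The 22 tRNA genes together held 0.0159% ± 0.0033 and 0.0171% ± 0.0043.

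The rRNA genes departed from this. Their share was 0.0819%, 0.0868%, 0.0945% and 0.156% in Ctrl mice 1 to 4, and 0.130%, 0.130%, 0.214% and 0.190% in KO mice 1 to 4. Ctrl mouse 4, which was high for all classes, lay among the KO mice, while the other Ctrl mice were below every KO mouse. Set against the mitochondrial mRNA of the same library, the groups no longer overlapped. There were 12.6, 12.7, 12.5 and 13.7 rRNA counts per 1000 mRNA counts in Ctrl mice, and 16.3, 23.8, 24.8 and 22.2 in KO mice. The mean was 1.69 times as high in KO mice, and KO mouse 1 lay nearest to the controls.

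**Figure D1:**
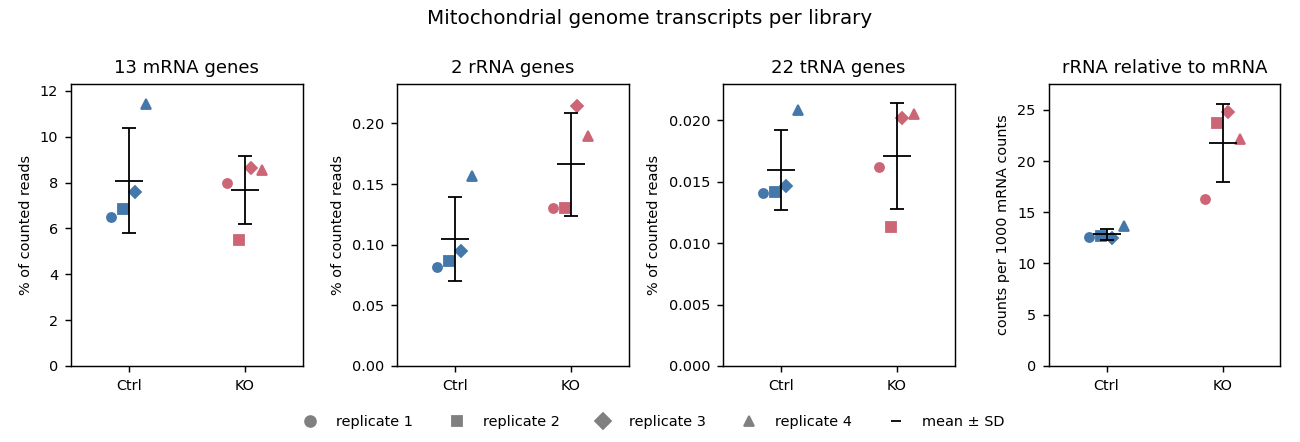
Percent of counted reads on mitochondrial mRNA, rRNA and tRNA genes in each of 8 libraries, and rRNA counts per 1000 mRNA counts (points, mice; bars, mean ± SD; linear axes from 0). The mRNA shares overlap between genotypes, while the rRNA to mRNA ratio runs from 12.5 to 13.7 in Ctrl and from 16.3 to 24.8 in KO mice.

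Gene by gene, no mitochondrial transcript passed the test at an adjusted p of 0.05. The test was edgeR's quasi-likelihood fit over all 16109 genes that passed the filter on low counts, with Benjamini-Hochberg adjustment, and 25 of the 37 members were among them: all 13 mRNAs, both rRNAs and 10 tRNAs. The count past the adjusted threshold was 0 of 25 with edgeR, and also 0 with DESeq2 and with limma, where 0.00621% of all genes tested passed with edgeR (Mex3a alone), 0.578% with DESeq2 and 0.0124% with limma. At an unadjusted p under 0.05, the cutoff the study used for its own gene list, 3 of 25 members passed with edgeR, against 8.38% of all genes. Of these, 1 was higher in KO mice (background 5.33%) and 2 were lower (background 3.05%). The members' counts are too small to set apart from that background. The median log2 fold change (KO over Ctrl) was -0.12 over the 25 members and -0.02 over all genes tested, and 17 of the 25 members had a negative value. Without Ctrl mouse 4 the members' median turned to 0.075.

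**Figure D2:**
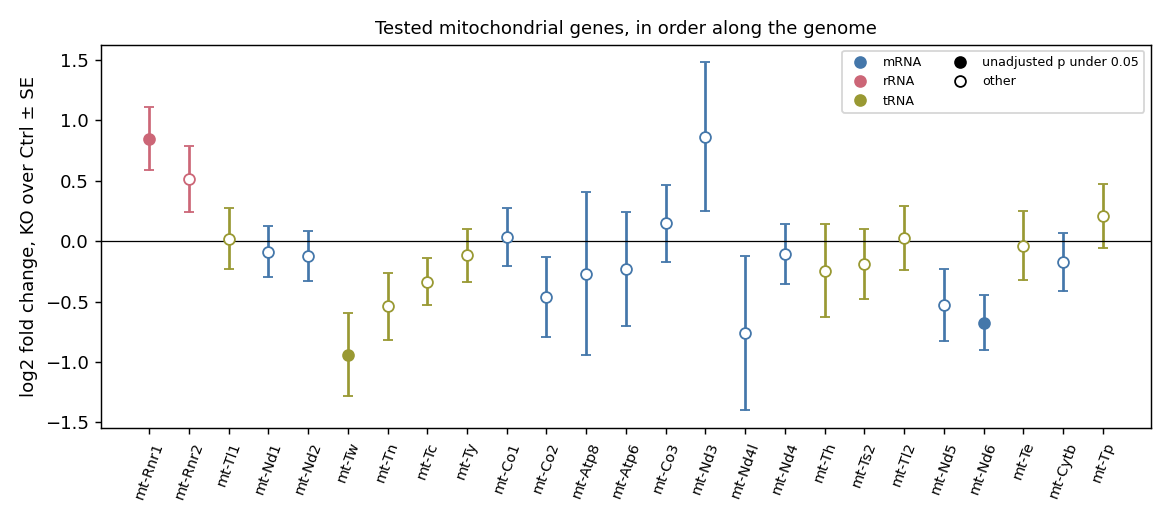
Log2 fold change (KO over Ctrl) ± SE of the 25 tested mitochondrial genes, 4 mice per group, in their order along the genome; filled points have an unadjusted p under 0.05. The filled points are mt-Rnr1 at 0.85, mt-Tw at -0.94 and mt-Nd6 at -0.67.

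Same-numbered mice of both genotypes deviated together over all genes, though weakly for numbers 1 and 3 (r = 0.129 and 0.141), and over the members r was 0.083 for number 1 and 0.342 to 0.674 for the others. A paired fit is therefore given beside this count. With the replicate block, 7 of 25 members had an unadjusted p under 0.05, against 11.3% of all genes, and 0 of 25 had an adjusted p under 0.05, as did 0% of all genes. The members were mt-Rnr1, mt-Nd6, mt-Nd5, mt-Tw, mt-Tn, mt-Rnr2 and mt-Nd4l. Their log2 fold changes with the block were 0.85 for mt-Rnr1 and 0.53 for mt-Rnr2, and the other 5 were negative, from -0.94 for mt-Tw to -0.50 for mt-Nd5.

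Both rRNAs were higher on average in KO mice. mt-Rnr1 encodes 12S rRNA of the small mitochondrial ribosomal subunit, and mt-Rnr2 (MT, 1094 to 2675, plus strand) encodes 16S rRNA of the large subunit. mt-Rnr1 had 359, 349, 408 and 657 CPM in Ctrl mice 1 to 4 and 602, 586, 1045 and 959 CPM in KO mice 1 to 4. Only Ctrl mouse 4 reached into the KO range. The log2 fold change was 0.85 (SE 0.26, unadjusted p = 0.00896, adjusted p = 0.518, edgeR). It kept an unadjusted p under 0.05 in 19 of 19 alternative settings, with values from 0.69 to 1.10 and adjusted p from 0.0707 to 0.952.

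mt-Rnr2 had 475, 490, 530 and 957 CPM in Ctrl mice and 678, 657, 1198 and 974 CPM in KO mice. Again Ctrl mouse 4 overlapped with the KO mice and the other Ctrl mice did not. Its log2 fold change of 0.52 (SE 0.27, unadjusted p = 0.0877, adjusted p = 0.641) did not pass in the main edgeR fit. In 4 of 19 alternatives it had an unadjusted p under 0.05. This p was 0.0187 with the replicate block (edgeR), 0.0403 without the filter (edgeR) and 0.0427 with DESeq2. Without Ctrl mouse 4 the log2 fold change was 0.81 (unadjusted p = 0.00459, adjusted p = 0.320, edgeR). Without KO mouse 3 it was 0.33 and did not pass. The ratio of mt-Rnr1 to mt-Rnr2 counts was also higher in every KO mouse, at 0.872 to 0.984, than in any Ctrl mouse, at 0.687 to 0.768. The library type, and thus whether rRNA was depleted or polyadenylated RNA selected, is not given in the sources used here, so these values are what remained of rRNA after an unstated selection.

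mt-Nd6, a complex I subunit, was lower in KO mice. Its level was 816, 849, 937 and 1573 CPM in Ctrl mice 1 to 4 and 651, 496, 791 and 678 CPM in KO mice 1 to 4. The highest KO mouse lay below the lowest Ctrl mouse. mt-Nd6 was the 1 member of 25 whose groups did not overlap on this scale, where 4.05% of all genes tested had groups that did not overlap. The log2 fold change was -0.67 (SE 0.23, unadjusted p = 0.0145, adjusted p = 0.518). Without Ctrl mouse 4 it was -0.41 (unadjusted p = 0.0271, adjusted p = 0.486), a change of over 1.5 times in size on the log2 scale.

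mt-Nd5, the complex I subunit gene that meets mt-Nd6 tail to tail, had 3574, 3140, 4536 and 7413 CPM in Ctrl mice and 2833, 2109, 4123 and 3861 CPM in KO mice. The groups overlapped, with KO mice 3 and 4 inside the Ctrl range. The log2 fold change was -0.53 (SE 0.30, unadjusted p = 0.107, adjusted p = 0.660), and -0.50 (unadjusted p = 0.00967, adjusted p = 0.298) with the replicate block. Without Ctrl mouse 4 it was -0.21 and did not pass. The ratio of mt-Nd6 to mt-Nd5 counts overlapped between groups, at 0.207 to 0.270 in Ctrl and 0.176 to 0.235 in KO mice. Whether the counting used strand is not given in the sources used here, so reads of mt-Nd6 and reads from the strand opposite to it cannot be told apart.

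Dividing by the mitochondrial mRNA total removed most of the spread that Ctrl mouse 4 and KO mouse 2 brought. Per 1000 mitochondrial mRNA counts, mt-Rnr1 had 5.42, 5.27, 5.42 and 5.56 counts in Ctrl mice and 7.65, 11.2, 11.6 and 11.01 in KO mice. mt-Nd6 had 12.3, 12.8, 12.5 and 13.3 counts in Ctrl mice and 8.27, 9.47, 8.76 and 7.78 in KO mice. The Ctrl mice lay close together for both genes, and neither gene overlapped between groups. On this scale 6 of 25 members did not overlap, against 1.92% of all genes tested: mt-Co1, mt-Rnr1 and mt-Rnr2 were higher in KO mice, and mt-Nd5, mt-Nd6 and mt-Tn were lower. These shares depend on each other, since mt-Co1 alone was 45.7% to 51.3% of the mRNA total by which all were divided. The background is no like measure here either, because the division takes the spread of the mitochondrial share out of the members and adds it to every nuclear gene, so 6 of 25 is given as a description.

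The scale was chosen after the data were seen. A fit of all genes with the mitochondrial mRNA total as library size gave 2 of 25 members an unadjusted p under 0.05, against 5.31% of all genes, and 0 of 25 an adjusted p under 0.05, against 1.28%. They were mt-Rnr1, with a log2 fold change of 0.93 (SE 0.32, unadjusted p = 0.00346, adjusted p = 0.182), and mt-Nd3, described below. mt-Nd6 was at -0.57 (SE 0.31, unadjusted p = 0.0692, adjusted p = 0.99999) in this fit and so did not pass, with a wider standard error than on the library scale.

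Direct ratios to mt-Cytb, a long mRNA with no annotated copy among the 7 pseudogenes, gave the same picture without the sum. There were 25.9, 23.9, 24.9 and 25.0 mt-Rnr1 counts per 1000 mt-Cytb counts in Ctrl mice, and 36.2, 53.9, 56.8 and 55.5 in KO mice. For mt-Nd6 there were 59.0, 58.2, 57.3 and 59.9 in Ctrl mice, and 39.1, 45.6, 43.0 and 39.2 in KO mice. Each pair of groups was separate. The summed enterocyte markers were at 1389, 1026, 1410 and 2463 CPM in Ctrl mice 1 to 4 and at 1509, 2130, 5992 and 3505 CPM in KO mice 1 to 4. They placed the KO mice in the same order as the mt-Rnr1 ratio did, while Ctrl mouse 4 had a higher sum than KO mice 1 and 2 and a lower ratio. The summed T cell markers, at 7.15, 10.1, 27.2 and 21.5 CPM in KO mice 1 to 4, gave that order as well. Of the 5 T cell markers tested, 3 were higher in KO mice at an unadjusted p under 0.05 (edgeR). So were 2 of 6 enterocyte and 3 of 6 epithelial markers, against 5.33% of all genes. The sum of the stem cell markers, mostly Olfm4, separated the genotypes as these ratios did. Olfm4 and Smoc2 did so singly. Lgr5 overlapped, at 62.7 to 109 CPM in Ctrl and 44.7 to 83.1 CPM in KO mice. Ascl2 did too, at 29.0 to 36.3 and 16.6 to 35.3 CPM. Of these 4 markers, 3 were lower at an unadjusted p under 0.05 (edgeR), against 3.05% of all genes. The part of these marker lists in the result was not tested.

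**Figure D3:**
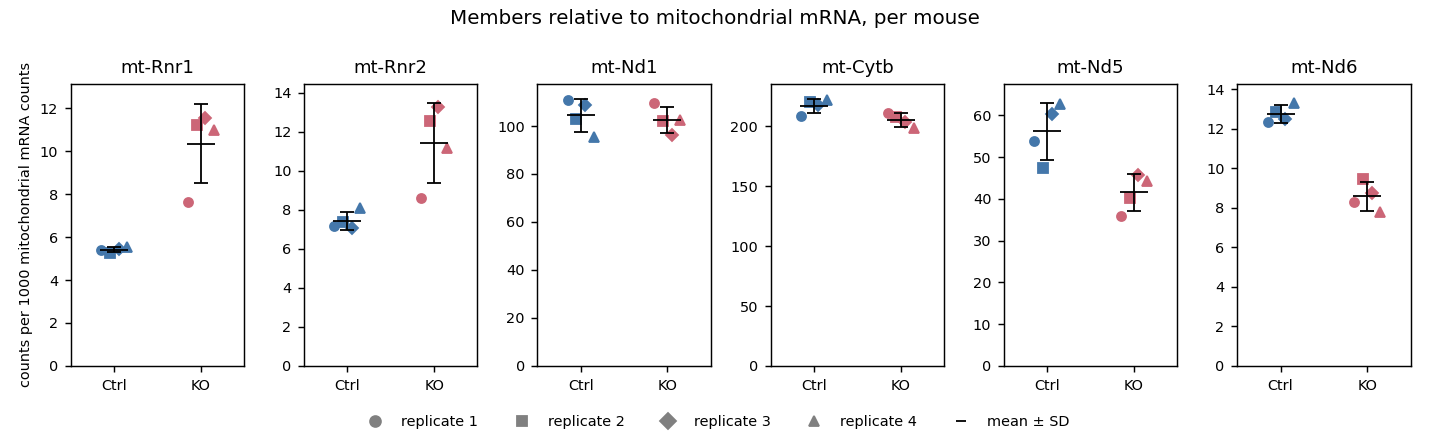
Counts per 1000 mitochondrial mRNA counts for 2 rRNA and 4 mRNA genes in each mouse (points, mice; bars, mean ± SD, n = 4; each axis from 0). mt-Rnr1 runs from 5.27 to 5.56 in Ctrl and from 7.65 to 11.6 in KO mice, mt-Nd6 from 12.3 to 13.3 and from 7.78 to 9.47, and mt-Nd1 and mt-Cytb overlap.

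The other abundant mRNAs differed little between genotypes. mt-Nd1 and mt-Nd2, complex I subunits, had log2 fold changes of -0.09 (SE 0.21) and -0.12 (SE 0.21). mt-Nd4, also of complex I, was at -0.10 (SE 0.25), and mt-Cytb, the cytochrome b of complex III, at -0.17 (SE 0.24). mt-Co1, the catalytic subunit of complex IV, was at 0.03 (SE 0.24). None of the 5 had an unadjusted p under 0.05 in the main fit or in any alternative, and the groups overlapped for each of them in CPM. The sign of all but mt-Co1 turned positive without Ctrl mouse 4, with values from 0.07 for mt-Nd2 to 0.16 for mt-Nd4.

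Among the mRNA and rRNA genes, levels per length spanned more than 3 orders of magnitude. On the FPKM scale (fragments scaled by gene length and library size), mt-Co1 was highest with 24500 ± 7299 in Ctrl and 25212 ± 5795 in KO mice (SD, n = 4). It was followed by mt-Cytb, mt-Nd1, mt-Nd2, mt-Nd4, mt-Nd5, mt-Nd6, mt-Rnr1 and mt-Rnr2. This order of 9 genes held in each of the 8 libraries, although the ranges of neighbours overlapped across mice. The levels of mt-Nd4 and mt-Co1 in it are uncertain, since chromosome 1 copies align to 63.57% and 31.26% of their length. How the counting treated reads there is not given in the sources used here. The order leaves out the tRNA genes, of which mt-Tp had a mean of 1870 FPKM over all mice. mt-Rnr1 stood at 460 ± 150 FPKM in Ctrl and 834 ± 247 in KO mice, below mt-Nd6 at 1995 ± 681 and 1257 ± 233.

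Below them came a block of neighbouring genes from mt-Co2 to mt-Nd4l. mt-Co2, a complex IV subunit, had a mean of 321 FPKM over all mice, mt-Atp6 of complex V 238, mt-Co3 of complex IV 138, mt-Nd4l of complex I 91.6 and mt-Nd3 of complex I 30.2. mt-Atp8 of complex V had 6.16 FPKM, from 7 to 86 counts in a library. The order of mt-Co2 and mt-Rnr2 was not the same in all mice. These are the genes that the annotated chromosome 1 copies match at 98.28% of their length or more, apart from mt-Atp8. Of mt-Atp8, only the 43 bases shared with mt-Atp6 fall in an aligned copy. The chromosome 1 sequence between the annotated copies was not aligned, so a match to the rest of mt-Atp8 was not tested.

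**Figure D4:**
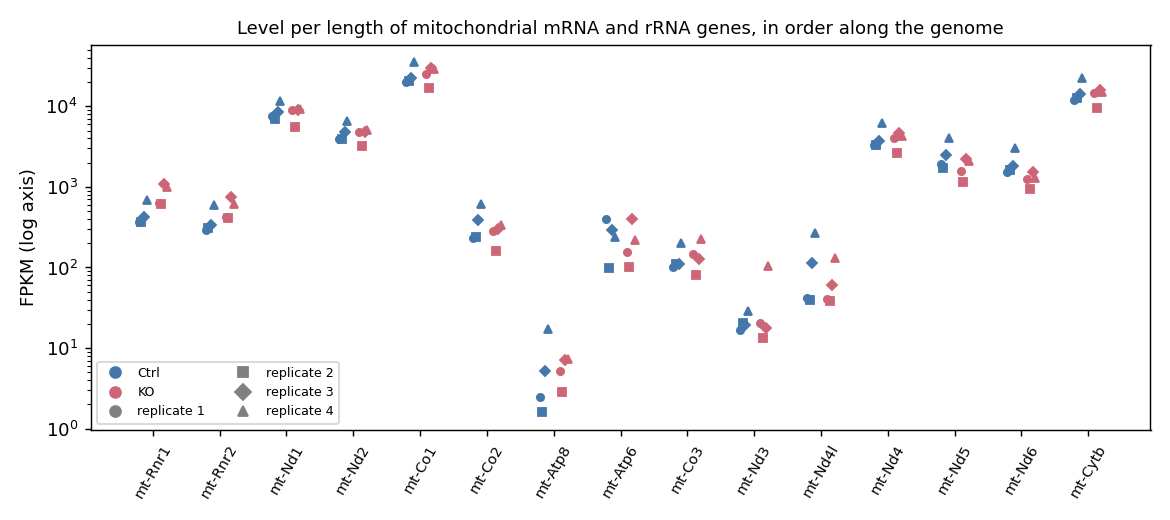
FPKM of the 13 mRNA and 2 rRNA genes in each mouse on a log axis, in order along the genome. The genes from mt-Co2 to mt-Nd4l lie between 1.59 and 620 FPKM, and mt-Co1, mt-Nd1, mt-Nd2, mt-Nd4, mt-Nd5, mt-Nd6 and mt-Cytb between 953 and 35357 FPKM.

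Reads that lie wholly within an identical stretch cannot be placed by sequence, and how the counting treated them is not given in the sources used here. Of the reads counted on mt-Nd3 or on its copy Gm28438, 10.8%, 9.29%, 12.2% and 9.56% were on mt-Nd3 in Ctrl mice 1 to 4, and 11.1%, 10.3%, 14.1% and 82.1% in KO mice 1 to 4. KO mouse 4 stood apart from the other 7 mice. mt-Nd3 had 1103 counts there and 119 to 241 elsewhere, while Gm28438 had 241 counts there and 868 to 2281 elsewhere.

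This 1 library set the sign of mt-Nd3. Its log2 fold change was 0.87 (SE 0.62, unadjusted p = 0.192, adjusted p = 0.741) and turned to -0.33 without KO mouse 4. With the counts of all 7 copies added to their genes, an alternative chosen after the data were seen, it was -0.57 (SE 0.22, unadjusted p = 0.0276, adjusted p = 0.551). mt-Nd3 and Gm28438 together had 53.8, 80.6, 56.0 and 102 CPM in Ctrl mice and 65.1, 47.2, 41.8 and 43.8 in KO mice. KO mouse 1 lay within the Ctrl range and the other KO mice below it. In the fit relative to mitochondrial mRNA, where mt-Nd3 passed at 0.84 (SE 0.35, unadjusted p = 0.0165, adjusted p = 0.521), the copies were not added.

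The split also varied between mice for the other copied genes, and the genotypes overlapped. The share of the pair's reads on the mitochondrial gene ran from 30.6% to 74.4% for mt-Atp6, from 22.3% to 60.7% for mt-Co3, from 44.2% to 72.2% for mt-Nd4l and from 58.6% to 70.5% for mt-Co2. For mt-Nd4 and mt-Co1, which the copies match only in part, it stayed at 99.05% or more in all 8 libraries. Their share includes reads from the parts without an annotated copy. The log2 fold changes were -0.46 for mt-Co2, -0.23 for mt-Atp6, 0.15 for mt-Co3, -0.76 for mt-Nd4l and, for mt-Atp8, which has no annotated copy of its own here, -0.27, with standard errors from 0.32 to 0.67. None had an unadjusted p under 0.05 in the fit without the block, and mt-Nd4l passed with it, at -0.52. Single mice moved all of these values. Without Ctrl mouse 4, mt-Co2 was at -0.09, mt-Nd4l at 0.075 and mt-Atp8 at 0.85, and mt-Nd4l was at -1.31 without KO mouse 4. mt-Co2 was at -0.28 without KO mouse 2, mt-Atp6 at 0.065 without Ctrl mouse 1 and mt-Co3 at -0.16 without KO mouse 4. Adding the copies turned mt-Co3 to -0.25 and left mt-Co2, mt-Atp6 and mt-Nd4l negative. The 7 copies together held 0.0680% ± 0.0248 of reads in Ctrl and 0.0501% ± 0.0099 in KO mice, and whether their counts came from chromosome 1 or from mitochondrial RNA cannot be told apart.

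**Figure D5:**
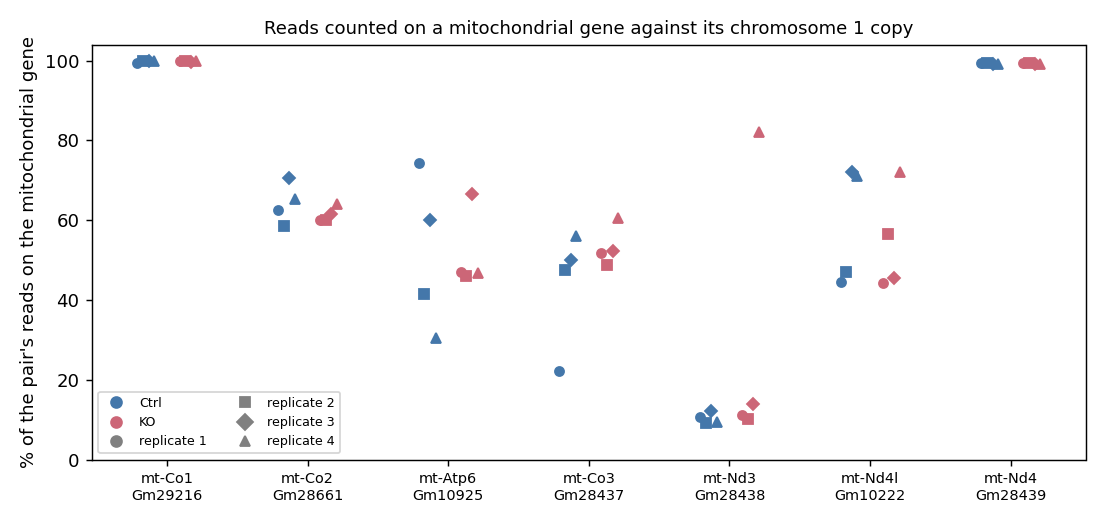
Percent of a pair's reads counted on the mitochondrial gene and not on its chromosome 1 copy, for 7 pairs in 8 mice (linear axis). mt-Nd3 lies between 9.29% and 14.1% in 7 mice and at 82.1% in KO mouse 4, and mt-Co1 and mt-Nd4 stay above 99% in all mice.

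Among tRNA genes, a single gene held most of the counts. mt-Tp, the proline tRNA gene (MT, 15356 to 15422, minus strand), took 66.1% to 83.5% of the tRNA counts of a library. The 4 tRNA genes with the most counts are shown 5′ to 3′ with the anticodon in capitals, mt-Tc for cysteine, mt-Tl2 for leucine and mt-Tn for asparagine beside mt-Tp.
mt-Tp: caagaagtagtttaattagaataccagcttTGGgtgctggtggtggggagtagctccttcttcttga
mt-Tc: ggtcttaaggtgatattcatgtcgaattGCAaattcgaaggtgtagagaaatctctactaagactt
mt-Tl2: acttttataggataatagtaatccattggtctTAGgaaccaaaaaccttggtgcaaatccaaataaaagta
mt-Tn: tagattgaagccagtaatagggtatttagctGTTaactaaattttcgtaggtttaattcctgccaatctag

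mt-Tp had 103, 90.4, 114 and 161 CPM in Ctrl mice and 121, 75.4, 177 and 167 CPM in KO mice. The groups overlapped, and the log2 fold change was 0.21 (SE 0.27, unadjusted p = 0.458, adjusted p = 0.882). It ran from 0.05 without KO mouse 3 to 0.40 without KO mouse 2. mt-Tw, the tryptophan tRNA gene, had 38, 25, 16 and 32 counts in Ctrl mice and 21, 21, 10 and 15 counts in KO mice. It passed at an unadjusted p of 0.0219 (log2 fold change -0.94, SE 0.34, adjusted p = 0.545), with Ctrl mouse 3 inside the KO range. It no longer passed without Ctrl mouse 1 (log2 fold change -0.74), without KO mouse 3 (-0.79) or without KO mouse 4 (-0.82), where edgeR's unadjusted p-values lay between 0.0597 and 0.0707. Relative to mitochondrial mRNA it was at -0.84 and did not pass.

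mt-Tn, read from the same strand as mt-Nd6, had 6.38, 5.05, 5.52 and 10.3 CPM in Ctrl mice and 4.70, 3.18, 4.67 and 6.18 CPM in KO mice. KO mouse 4 lay within the Ctrl range. The log2 fold change was -0.54 (SE 0.28, unadjusted p = 0.0807, adjusted p = 0.634), and its unadjusted p was 0.0135 (adjusted p = 0.314) with the replicate block, 0.0484 without Ctrl mouse 2 and 0.0408 without KO mouse 4. Without Ctrl mouse 4 the log2 fold change was -0.27 and did not pass. mt-Tc was at -0.33 (SE 0.19), with an unadjusted p of 0.118, and of 0.0376 without Ctrl mouse 3, the 1 of 19 alternatives in which it passed. Without Ctrl mouse 4 it was at -0.21. The other 6 tested tRNA genes, mt-Tl1, mt-Ty, mt-Th, mt-Ts2, mt-Tl2 and mt-Te, lay between -0.24 and 0.03, and none of them had an unadjusted p under 0.05 in any setting.

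Across the strand of mt-Nd6, counts were 14.1, 14.3, 14.0 and 14.7 per 1000 mitochondrial counts in Ctrl mice and 9.85, 10.9, 10.7 and 9.74 in KO mice. This sum over 1 mRNA and 8 tRNA genes was lower in every KO mouse and was made up mostly of mt-Nd6. The other 12 tRNA genes did not pass the filter on low counts, with at most 23 counts in any library. Of these, mt-Tf, mt-Ts1 and mt-Td had 0 counts in all 8 libraries, which allows up to 0.148 CPM at 3 counts in the shallowest library, counting error only. mt-Ts1 and mt-Td, like mt-Tk, mt-Tg and mt-Tr, lie between genes that are copied on chromosome 1. The chromosome 1 sequence between the annotated copies was not aligned. The bound does not cover reads left uncounted because they match several places. Counts on genes this short, of 59 to 75 bases, do not tell mature tRNA from longer precursors.

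Nuclear genes that serve the mitochondrial genome differed little. Over 9 lists (transcription and replication of mitochondrial DNA, processing and stability of its RNA, mitochondrial aminoacyl-tRNA synthetases, nuclear regulators, and the nuclear subunits of complexes I to V) 152 genes were tested, of which 0 were higher and 4 were lower in KO mice at an unadjusted p under 0.05, and 0 passed after adjustment with edgeR. Over all genes tested the shares were 5.33% higher and 3.05% lower, so the count of lower genes was near the background and that of higher genes below it. With the replicate block, where 11.3% of all genes passed in either direction, 3 were lower (Twnk, Myc and Cox7c) and 1 was higher. The higher gene, named after its values were seen, was Esrra, a nuclear receptor gene among the regulators, with a log2 fold change of 0.22 (SE 0.11) in the fit without the block, where it did not pass. The list medians ran from -0.08 to 0.08. For the transcription list, 1 of 18 genes passed: Twnk, the helicase that unwinds mitochondrial DNA, with a log2 fold change of -0.33 (SE 0.09, unadjusted p = 0.00343, adjusted p = 0.518).

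Twnk had 63.4, 66.1, 61.7 and 55.6 CPM in Ctrl mice and 54.3, 51.1, 44.2 and 46.4 CPM in KO mice, without overlap. Polrmt was at -0.08 (SE 0.07) and Tfam, the packaging and transcription factor, at -0.06 (SE 0.11), and neither passed. In the RNA processing list 0 of 32 genes passed; Lrpprc, whose protein stabilises mitochondrial mRNAs, was at 0.02 (SE 0.08) and its partner gene Slirp at 0.08 (SE 0.33). None of the 17 synthetase genes passed. Among the 9 regulators, Myc, a transcription factor of growing cells, was at -0.42 (SE 0.14, unadjusted p = 0.0125, adjusted p = 0.518).

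The nuclear subunits of the respiratory complexes differed little as well. In complex I, 1 of 36 genes passed, Ndufb1-ps, at -0.33 (SE 0.13, unadjusted p = 0.0320, adjusted p = 0.557), and its call was lost with the replicate block. In complex IV, 1 of 11 passed, Cox7c, at -0.30 (SE 0.11, unadjusted p = 0.0201, adjusted p = 0.533). In complex II, which has no mitochondrially encoded subunit, and in complexes III and V, 0 of 4, 0 of 9 and 0 of 16 genes passed. The median log2 fold change was 0.01 for complex I, 0.08 for complex III, -0.03 for complex IV and 0.01 for complex V.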

How the data were processed

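RNA of crypts from 8 mice was analysed, grouped by the genotype in the labels (4 Ctrl, 4 KO). For each library the authors deposited unnormalized gene counts and FPKM values, made per the submitters' processing notes with HISAT2 2.0.5 and featureCounts 1.5.0-p3; the handling of reads with several matches, strand and library selection is not given in the sources used here. The deposited columns of the authors' own comparison (group means, fold changes, p-values) were not used. Columns of other samples numbered 0.

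Counts of all 55114 genes were filtered with filterByExpr (minimum count 10), scaled by TMM and tested with edgeR 4.0.16 (quasi-likelihood, genotype only, Benjamini-Hochberg adjustment, threshold 0.05) in R 4.3.3, after the scripts had been tested on simulated data. There, 20.8% of the calls of DESeq2 at an adjusted p under 0.05 were false, against 2.04% for edgeR and 5.80% for edgeR with the replicate block. CPM values use TMM library sizes; marker sums and gene plus copy sums use total counts. Sums over members are described without a test. No 2 libraries of the same genotype agreed within sampling noise (the smallest chi-square divided by its degrees of freedom was 20.9). Labels do not state the litter of each mouse. Deviations from group means correlated for each same-numbered pair (r = 0.129, 0.501, 0.141 and 0.294 over all genes), so the numbers were taken to pair the mice. This pairing is an assumption drawn from the same data, and differently numbered mice were not compared with it. Alternatives were DESeq2 1.42.0, limma 3.58.1 on log2(FPKM + 1) and log2(FPKM + 0.1), other scaling factors and filters, the replicate block, leaving out each mouse, and, added after seeing the data, scaling to mitochondrial mRNA and adding nuclear copies. Copies were aligned with Biopython 1.88.

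All mRNA and rRNA members and the tRNA members that passed the filter are named; of the nuclear lists, genes with an unadjusted p under 0.05 (at most 6 a list) and Polrmt, Tfam, Lrpprc, Slirp and Mex3a. Members and lists were chosen with earlier results of these data known.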

Additional observations from a re-analysis of the deposited data

Results flagged for a closer look

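Within groups of 4 mice, values whose gap to the nearest other mouse exceeded Dixon's 95% critical share of the group's range were picked out. Of 74 groups examined, 14 held such a value, where chance gives about 1 in 20 groups, or 3.7; the groups share mice and reads and are not independent. Ctrl mouse 4 accounted for 8 of the 14: it was high for mt-Rnr2 (957 CPM), mt-Co1 (55107 CPM), mt-Co3 (160 CPM), mt-Nd4 (8696 CPM) and mt-Nd6 (1573 CPM), for the rRNA share (0.156% of reads), for the tRNA share (0.0208%) and for rRNA per 1000 mRNA counts (13.7). KO mouse 4 was high for mt-Nd3 (36.7 CPM) and for the share of reads on mt-Nd3 against its copy Gm28438 (82.1%). KO mouse 3 was high for the share on mt-Atp6 against Gm10925 (66.6%) and low for mt-Th (2.03 CPM). KO mouse 2 was low for mt-Nd1 (5334 CPM), and Ctrl mouse 1 was low for the share on mt-Co1 against Gm29216 (99.4%).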

How the results depend on the processing

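The count of 0 members past the adjusted threshold held in all 19 alternatives, and the count of 3 past the unadjusted one ran from 2 to 4 in all but the replicate block (7). The paired fit changed no adjusted call of a member. The sign of the median log2 fold change of the tested members, and of the shares of reads on all and on mRNA genes, rested on single mice: without 1 mouse in turn they ran from -0.21 to 0.075, from -0.90 to 0.77 and from -0.95 to 0.69 percentage points, and the tRNA share from -1.75e-05 to 0.00307. As shares of summed FPKM the differences were 0.0860 (all genes, reversed), 0.143 (rRNA) and 0.0718 (tRNA) percentage points, where short genes weigh more by construction. The rRNA to mRNA ratio difference stayed between 7.88 and 10.7 per 1000 without any 1 mouse.

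Of 474 values for single members, 38 turned sign, and 10 of 25 members never did. Without 1 mouse in turn, log2 fold changes that crossed 0 ran from -0.15 to 0.15 (mt-Tl1), -0.18 to 0.088 (mt-Nd1), -0.21 to 0.073 (mt-Nd2), -0.21 to 0.021 (mt-Ty), -0.059 to 0.26 (mt-Co1), -0.59 to 0.85 (mt-Atp8), -0.70 to 0.065 (mt-Atp6), -0.16 to 0.44 (mt-Co3), -0.33 to 1.16 (mt-Nd3), -1.31 to 0.075 (mt-Nd4l), -0.20 to 0.16 (mt-Nd4), -0.50 to 0.15 (mt-Th), -0.25 to 0.15 (mt-Tl2), -0.21 to 0.12 (mt-Te) and -0.27 to 0.081 (mt-Cytb). mt-Atp8 was at 0.16 and 0.26 with limma (pseudocounts 1 and 0.1) and at 0.12 with the replicate block, mt-Tl2 at -0.0040 with the block, and mt-Te at 0.068 relative to mitochondrial mRNA. With nuclear copies added, mt-Co3 was at -0.25 and mt-Nd3 at -0.57. The cause of these changes was not tested. Counts were low for mt-Atp8 (7 to 86 in a library), for the tested tRNA genes other than mt-Tp (10 to 426) and for mt-Nd3 (119 to 1103).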
